A study of Mus musculus with 28 samples.

Results

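Chemokines are small secreted proteins that attract leukocytes along a gradient, and their receptors are G protein-coupled receptors on the cells that respond. The genes described here were all rows of the deposited gene table whose symbol is Ccl, Cxcl, Ccr or Cxcr followed by a number and an optional letter, together with Cx3cl1, Cx3cr1, Xcl1, Xcr1 and the atypical receptors Ackr1 to Ackr4. This rule gave 59 of 39152 symbols, of which 37 encode ligands and 22 encode receptors, and it used no measured value. The largest sets lie on chromosome 11 with 14 members, chromosome 9 with 13 and chromosome 5 with 11, in the GRCm39 genome build.

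The study measured RNA by sequencing in the left ventricle (LV) and right ventricle (RV) of adult C57BL6 mice with a model of arrhythmogenic right ventricular cardiomyopathy. All animals carried floxed Pkp2 alleles (Pkp2 fl/fl), the gene for the desmosome protein plakophilin 2. WT were Cre-negative littermates given HBSS vehicle, and cKO carried αMyHC-Cre-ER(T2), a tamoxifen-activated Cre driven by a cardiomyocyte promoter, and also received HBSS. The groups 3E13 and 6E13 were cKO animals given a single retro-orbital injection of TN-401, an AAV9 vector carrying a codon-optimised human PKP2 under a cardiac troponin T promoter, at 3E13 or 6E13 vector genomes per kg, 1 week before tamoxifen. Deletion and transgene are therefore both aimed at cardiomyocytes, whereas most chemokine receptors are carried by leukocytes. A single collection time is given for the sequenced hearts, the last evaluation after induction, and no separate time for HBSS-treated cKO animals, in a model with early death. A difference in collection time between cKO and treated hearts therefore cannot be told apart from treatment.

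There were 16 LV libraries and 12 RV libraries from 16 animals, 1 library per animal and ventricle, and 12 animals gave both. The LV libraries were WT animals 248, 626, 636, 637 and 647, cKO animals 177, 180, 257 and 264, 3E13 animals 181, 182, 252 and 253, and 6E13 animals 250, 631 and 645. The RV libraries were WT 636, 637 and 647, cKO 177, 180, 257 and 264, 3E13 181 and 253, and 6E13 250, 631 and 645. Values below are always listed in this order, in CPM, the read count relative to library size after TMM scaling within a ventricle.

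Chemokine receptors mark leukocyte classes: CCR2 is carried by inflammatory monocytes, CXCR3 by activated T cells, CCR7 by migrating dendritic cells and naive T cells, and CXCR2 by neutrophils. Many ligands are induced by cytokines, and CXCL9 and CXCL10 in particular follow interferon, whereas CXCL12 is made constantly by stromal cells. The atypical receptors (ACKR) bind chemokines without G protein signalling and remove or transport them. In the healthy heart, resident macrophages carry CX3CR1, and monocytes enter through CCR2 after injury.

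Total counts per library ranged from 19364737 to 39381144. Mouse Pkp2 was at 103 to 121 CPM in WT LV, 29.2 to 55.2 in cKO LV and 31.8 to 44.9 in the treated LV libraries, while the human PKP2 transcript was at 0 in all WT and cKO libraries and at 167 to 535 CPM in the treated libraries of both ventricles. The 7 ventricular cardiomyocyte markers were present in every library, and in cKO against WT 5 of them were lower in LV and 7 in RV. The cKO LV library of animal 177 stood apart, with a summed member level of 1148 CPM against 386, 477 and 524 in the other cKO LV libraries and a neutrophil marker sum of 86.0 CPM. The 3E13 LV library of animal 182 had the lowest transgene level of the 3E13 LV libraries, and the cKO RV libraries of animals 180 and 257 held atrial muscle RNA (Myl7 at 87.9 and 47.3 CPM). Below, calls lost without animal 177 are described, and RV calls of cKO against WT are also counted without the 2 libraries with atrial RNA. Results of the marker and gene lists were not recomputed without any of these libraries. Ackr1, Ccl3, Ccr7, Cxcl5, Cxcl10, Cx3cl1, Cxcl16, Cx3cr1 and Xcl1 each overlap a gene on the opposite strand. So do Ackr4, Ccl25, Ccl27a, Ccl28, Ccr6, Ccr9, Cxcl11, Cxcr5 and Xcr1, and Ccr9 also overlaps Gm17200 on the same strand. Whether the counting used strand is not given in the sources used here.

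Of the 59 members, 45 passed the low-count filter in LV and 48 in RV, and these were tested along with all other genes passing it (16410 in LV and 17307 in RV). Calls below mean an adjusted p under 0.05 in edgeR's quasi-likelihood test with Benjamini-Hochberg adjustment over all of those genes. In all, 30 members were called in at least 1 of 12 within-ventricle comparisons, 18 were tested and never called, and 11 stayed below the filter in both ventricles. Those 11 were Ccl1, Ccl17, Ccl20, Ccl26, Ccr3, Ccr6, Cxcl3, Cxcl11, Cxcl15, Cxcl17 and Cxcr1, and Ccl20, Ccl26 and Cxcl17 had 0 counts in all 28 libraries. The comparisons against cKO share the cKO libraries and those against WT share the WT libraries.

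In cKO against WT LV, 21 of 45 members were higher and 2 were lower. Among all genes tested, 19.7% were higher and 16.1% lower, against 46.7% and 4.44% of the members. The median log2 fold change of the members was 1.69 and that of all genes 0.05. In cKO against WT RV, 18 of 48 members were higher and 2 lower, where 19.8% of all genes were higher and 17.6% lower. The members' median was 1.73, or 1.44 with genes at 0 in all WT libraries placed at their bound, and that of all genes 0.06. The calls shared by both ventricles numbered 16, all in the same direction, which is 69.6% of the LV calls and 80% of the RV calls. Of these, 14 were higher (among them Ackr1, Ccl19, Ccl4, Ccl5, Ccl6, Ccl8, Ccl9, Ccr1, Ccr2, Cx3cl1, Cx3cr1, Cxcl16 and Cxcl2), and Ackr3 and Ccl11 were lower. The groups did not overlap for 10 of the 23 called members in LV and for 17 of the 20 in RV, where this held for 73.6% of all genes called in LV and 91.3% in RV.

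The number of LV calls depended on the library of animal 177: without it, 13 members were called, 11 higher and 2 lower. Calls over all genes went from 5875 to 5448. The 10 member calls lost included Ackr1, Ccl2, Ccl3, Ccr1, Ccr7, Cx3cr1, Cxcl2, Cxcl5 and Cxcr2, of which Cxcl2 no longer passed the filter. In RV, leaving out the 2 cKO libraries with atrial RNA kept 19 of the 20 calls, all but Ackr3, and gave 24 calls in total. Calls over all genes went from 6468 to 6296.

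Against cKO, the shares of members called in the treated hearts lay near those of all genes. In LV, 4.44% of members were higher and 2.22% lower in 3E13, and 4.44% and 6.67% in 6E13. In RV the shares were 6.25% and 0% in 3E13, and 6.25% and 12.5% in 6E13. In 3E13 against cKO LV, 2 members were higher and 1 lower, with 5.52% of all genes higher and 6.25% lower. There were 8 calls without cKO animal 180 and 4 without 3E13 animal 182. Over all genes, that comparison called 1932, which became 2714 and 1986. In 6E13 against cKO LV, 2 were higher and 3 lower, with 8.65% and 8.16% of all genes. Those 5 calls became 8 without cKO animal 180, 3 without cKO 264, 1 without 6E13 animal 250 or 645 and 2 without 631. Over all genes, 2759 calls became 3454 without 180, 2337 without 264, 1665 without 250, 1169 without 645 and 1515 without 631. In 3E13 against cKO RV, 3 were higher and none lower, with 4.77% and 3.83% of all genes, and 0 members were called without 3E13 animal 181 or 253. Over all genes, that comparison called 1488, which became 9 without animal 181 and 8 without animal 253. In 6E13 against cKO RV, 3 were higher and 6 lower, with 11.2% and 10.9% of all genes. Without 6E13 animal 631 there were 5 calls, and 3825 calls over all genes became 2364. On log2(TPM + 1) with limma the splits of higher and lower calls were 1 and 4, 0 and 4, 5 and 7, and 2 and 14, in the order of these 4 comparisons. Over all genes, 3602, 4003, 5670 and 6824 were called. On that scale the median of all genes was 0.37 (LV) and 0.54 (RV) in cKO against WT, and -0.27, -0.29, -0.40 and -0.37 in the treated comparisons in the order above. Against WT it was 0.13 for 3E13 RV and 0.18 for 6E13 RV.

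Against WT, 3 members were higher in 3E13 LV and none lower, where 1.97% of all genes were higher and 0.53% lower. Leaving out any 1 of WT 248, 626 and 647 or 3E13 181, 252 and 253 gave 1 call, and leaving out 3E13 182 gave 4. Over all genes, 411 calls became 325 without 3E13 182 and 184 to 346 without any 1 of the others named. In 3E13 RV, 14 were higher and none lower, where 5.8% of all genes were higher and 1.58% lower. Over all genes, 1278 were called there, and 606 to 948 without 1 WT library. All 14 had groups that did not overlap, as did 100% of all genes called there, with 2 libraries in 3E13 and 3 in WT. Leaving out 3E13 animal 181 or 253 gave 5 or 4 calls, and leaving out WT 637 or 647 gave 7 each. In 6E13 RV, Ccl5 alone was higher and none was lower, with 0.849% and 0.0231% of all genes. DESeq2 called 8 members there, and 627 of all genes against 151 by edgeR. At an unadjusted p under 0.05 there were 24 members, 23 of them higher, and the share of all genes at that cut was not counted. In 6E13 LV, 0 of 45 members were called by edgeR, where 0.0853% of all genes were called. DESeq2 called 2 members there, and 104 of all genes against 14 by edgeR. At an unadjusted p under 0.05 there were 14 members, all higher, and the share of all genes was again not counted. The members' median log2 fold change against WT was 1.10 in 3E13 LV, 1.01 in 6E13 LV, 1.76 in 3E13 RV and 1.27 in 6E13 RV, while the medians of all genes lay between 0.00 and 0.01. With the genes at 0 in WT at their bound, the RV medians were 1.63 and 0.88.

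Between the doses, edgeR called 0 members in LV, with 0.0122% of all genes. DESeq2 called 0 members and 39 of all genes there, and 1 member had an unadjusted p under 0.05. In RV edgeR also called 0, where 0.0404% of all genes were called. DESeq2 called 3 members there, and 235 of all genes against 7 by edgeR. In RV, 8 members had an unadjusted p under 0.05, all lower at 6E13 (Ccl19, Ccl21a, Ccl5, Ccl6, Ccl8, Cx3cl1, Cxcl9 and Cxcr3). The share of all genes at that cut was not counted.

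**Figure D1:**
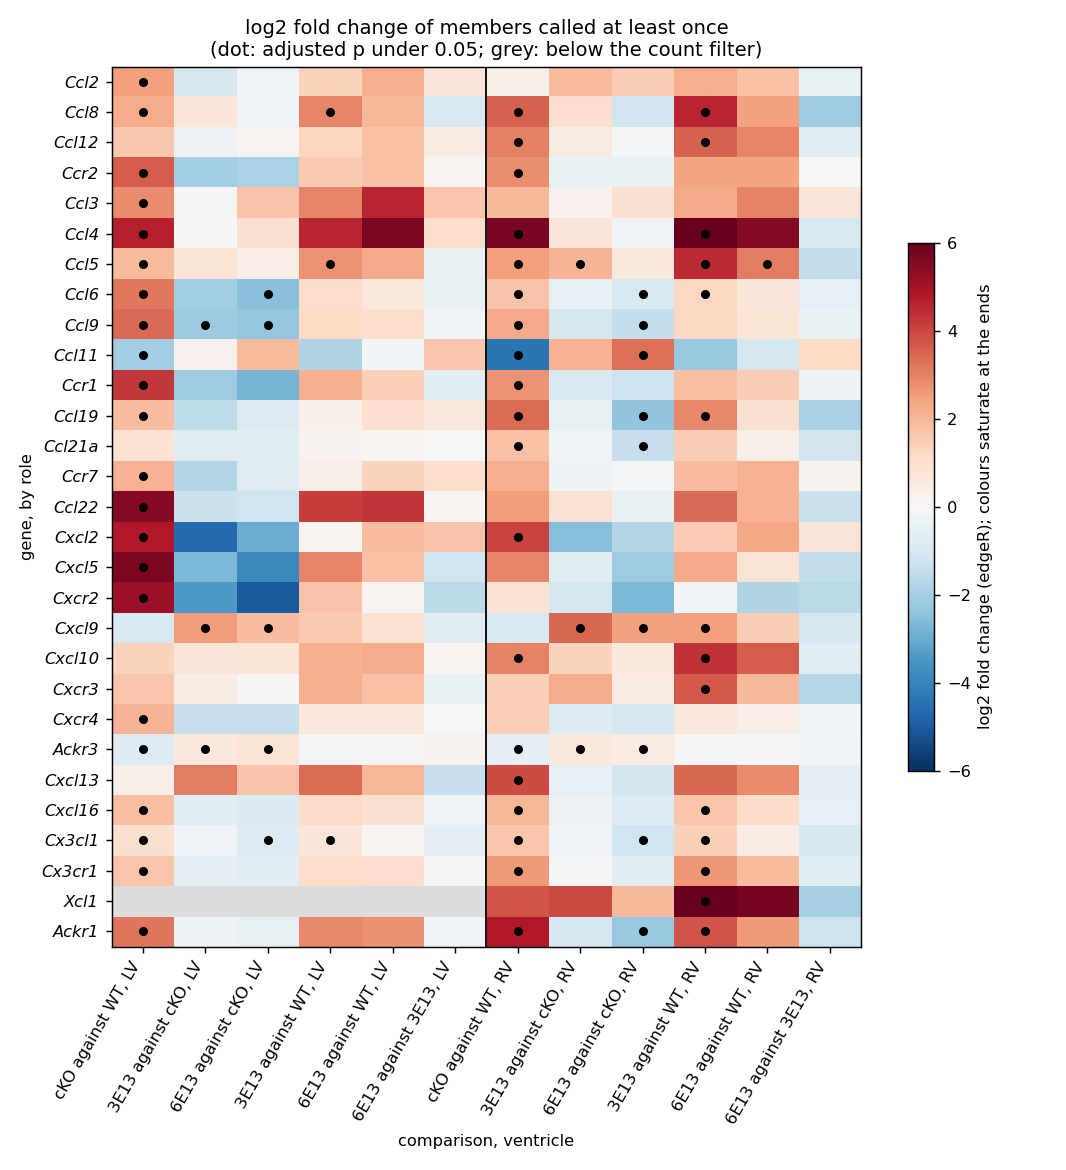
Heatmap of log2 fold changes of 29 called members (rows) in the 12 within-ventricle comparisons (columns), with a dot where adjusted p was under 0.05. The cKO against WT columns hold most dots, 22 in LV and 19 in RV. Ccl4 and Xcl1 were at 0 in all WT RV libraries, so their colours there depend on the prior count. The Ackr3 signs of cKO against WT and 6E13 against cKO in RV turned on log2(TPM + 1). On that scale the medians of all genes there were 0.54 and -0.37.

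The first group centres on CCR2, the receptor that brings inflammatory monocytes into tissue (chr9:123901982-123913594, forward strand). In LV, Ccr2 measured 3.88, 4.3, 4.63, 3.82 and 4.57 CPM in WT, 159.7, 4.48, 37.3 and 10.1 in cKO, 18.9, 8.52, 9.32 and 13.9 in 3E13 and 22.8, 13.7 and 5.95 in 6E13. In RV, Ccr2 measured 7.13, 4.3 and 7.04 CPM in WT, 74.9, 7.67, 63.1 and 24.1 in cKO, 32.3 and 31.6 in 3E13 and 51.9, 27.4 and 16.5 in 6E13. In LV, 3 of the 4 cKO libraries lay above the WT range, and in RV all 4 did. The cKO and WT groups differed in LV (log2 fold change 3.64 ± 0.76 (SE), adjusted p = 0.00184) and in RV (log2 fold change 2.79 ± 0.68 (SE), adjusted p = 0.00694). Without animal 177 the LV value was 2.02 (adjusted p = 0.00785). All treated libraries also lay above the WT range in both ventricles, but no comparison of a treated group with WT or with cKO was called for Ccr2 (against WT RV, log2 fold change 2.38 ± 0.69 (SE), adjusted p = 0.152 for 6E13 and log2 fold change 2.38 ± 0.73 (SE), adjusted p = 0.0749 for 3E13).

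The ligands of CCR2 lie together on chromosome 11. In LV, Ccl2 measured 1.04, 0.984, 1.68, 0.765 and 0.877 CPM in WT, 20.4, 0.169, 2.16 and 0.752 in cKO, 3.26, 2.84, 2.84 and 2.27 in 3E13 and 2.06, 10.5 and 2.09 in 6E13. In RV, Ccl2 measured 1.48, 0.95 and 0.659 CPM in WT, 2.25, 0.215, 2.17 and 0.348 in cKO, 5.22 and 4.23 in 3E13 and 2.64, 5.79 and 1.94 in 6E13. Ccl2 (MCP-1) was called higher in cKO LV (log2 fold change 2.44 ± 0.92 (SE), adjusted p = 0.0486), but without animal 177 the log2 fold change was -0.07 (adjusted p = 0.951). The call also did not hold without WT 248, WT 626, WT 636, WT 637 or WT 647 (log2 fold change 2.34 to 2.66, adjusted p = 0.0618 to 0.095). In the treated groups every library lay above the WT range in both ventricles, with no call (6E13 against WT LV, log2 fold change 2.17 ± 0.96 (SE), adjusted p = 0.751). In LV, Ccl7 measured 0.662, 0.41, 0.964, 0.675 and 0.229 CPM in WT, 11.5, 0, 1.38 and 0.0327 in cKO, 1.73, 0.999, 1.3 and 0.743 in 3E13 and 0.667, 8.05 and 2.91 in 6E13. In RV, Ccl7 measured 0.689, 0.769 and 0.453 CPM in WT, 2.49, 0.258, 1.36 and 0.348 in cKO, 2.87 and 2.48 in 3E13 and 0.762, 3.91 and 2.3 in 6E13. Ccl7, a neighbouring monocyte attractant, was not called in any comparison and spanned 0 to 11.5 CPM within cKO LV.

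Ccl8 and Ccl12, whose genes lie in the same chromosome 11 block, differed more regularly. In LV, Ccl8 measured 0.284, 0.164, 0.248, 0.225 and 0.457 CPM in WT, 1.34, 0.202, 1.35 and 2.36 in cKO, 2.35, 2.42, 1.58 and 2.32 in 3E13 and 1.39, 1.27 and 0.681 in 6E13. In RV, Ccl8 measured 0.443, 0.453 and 0.206 CPM in WT, 3.14, 2.15, 2.07 and 9.73 in cKO, 9.49 and 7.87 in 3E13 and 1.68, 2.76 and 1.41 in 6E13. Ccl8 was higher in cKO than in WT in LV (log2 fold change 2.23 ± 0.51 (SE), adjusted p = 0.00336) and RV (log2 fold change 3.54 ± 0.63 (SE), adjusted p = 0.00111), with overlap in LV through animal 180 alone. It was also higher in 3E13 than in WT in LV (log2 fold change 2.95 ± 0.52 (SE), adjusted p = 0.00713) and RV (log2 fold change 4.56 ± 0.69 (SE), adjusted p = 0.00281), without overlap in either. In LV, Ccl12 measured 0.378, 0.492, 0.633, 0.225 and 0.305 CPM in WT, 3.7, 0.371, 0.78 and 0.262 in cKO, 0.743, 1.63, 0.77 and 0.918 in 3E13 and 1.25, 2.32 and 0.681 in 6E13. In RV, Ccl12 measured 0.443, 0.0905 and 0.0824 CPM in WT, 3.52, 0.388, 1.23 and 1.47 in cKO, 2.11 and 2.66 in 3E13 and 1.24, 2.25 and 1.15 in 6E13. Ccl12 was called in RV only, for cKO (log2 fold change 3.02 ± 0.79 (SE), adjusted p = 0.0108) and 3E13 (log2 fold change 3.54 ± 0.86 (SE), adjusted p = 0.0298) against WT. The 3E13 call did not hold without WT 637, WT 647, 3E13 181 or 3E13 253 (log2 fold change 3.16 to 3.70, adjusted p = 0.0942 to 0.141). The difference of its cKO effects between ventricles was not called (log2 difference 1.78 ± 0.69 (SE), adjusted p = 0.397).

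Beside these values, the summed level of the 16 macrophage and monocyte markers in LV was 161 to 199.9 CPM in WT, 338 to 1331 in cKO, 319 to 438 in 3E13 and 286 to 343 in 6E13, with 12 of 16 higher and 1 lower in cKO against WT. In RV the sum was 211 to 263 CPM in WT, 577 to 1034 in cKO, 668.2 to 675 in 3E13 and 412 to 481 in 6E13, with 11 higher and 1 lower. None of these markers was at 0 throughout a group, and their part in the chemokine results was not tested. In bulk tissue, fewer cells of a type and less RNA per cell cannot be told apart.

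CCR1 responds to several inflammatory CC ligands, and its gene lies on chromosome 9, as does Ccr2. In LV, Ccr1 measured 0.284, 0.246, 0.578, 0.495 and 1.03 CPM in WT, 34.8, 1.45, 3.3 and 1.31 in cKO, 1.44, 5.84, 0.973 and 1.31 in 3E13 and 1.56, 2.63 and 0.182 in 6E13. In RV, Ccr1 measured 1.18, 0.362 and 0.494 CPM in WT, 5.98, 3.06, 6.41 and 2.32 in cKO, 2.27 and 2.41 in 3E13 and 3.84, 1.36 and 0.398 in 6E13. All cKO libraries exceeded all WT libraries in both ventricles for Ccr1, which is found on monocytes, macrophages and neutrophils (log2 fold change 4.25 ± 1.02 (SE), adjusted p = 0.00441 in LV and log2 fold change 2.71 ± 0.71 (SE), adjusted p = 0.0106 in RV). Without animal 177, the LV value was 1.91 (adjusted p = 0.0534).

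Ccl6 and Ccl9 are ligands of CCR1 made by macrophages and neighbours of each other on chromosome 11 (chr11:83478708-83483913, reverse strand and chr11:83463745-83473161, reverse strand). In LV, Ccl6 measured 3.64, 4.02, 5.07, 5.08 and 5.26 CPM in WT, 127, 10.5, 8.88 and 19.3 in cKO, 8.92, 16.6, 7.86 and 6.29 in 3E13 and 6.92, 6.87 and 7.86 in 6E13. In RV, Ccl6 measured 4.82, 7.38 and 7.08 CPM in WT, 21.6, 19.4, 19.8 and 23.5 in cKO, 15.3 and 15.1 in 3E13 and 10, 10.1 and 12.1 in 6E13. For Ccl6 every cKO library lay above every WT library in both ventricles (log2 fold change 3.16 ± 0.63 (SE), adjusted p = 0.00142 in LV and log2 fold change 1.71 ± 0.16 (SE), adjusted p = 2.79e-05 in RV). The LV value without animal 177 was 1.47 (adjusted p = 0.00117). In LV, Ccl9 measured 3.17, 3.93, 3.36, 3.51 and 3.62 CPM in WT, 110.0, 9.51, 9.9 and 17.1 in cKO, 8.09, 11.7, 6.65 and 6.16 in 3E13 and 7.64, 7.0 and 7.27 in 6E13. In RV, Ccl9 measured 3.1, 5.66 and 6.47 CPM in WT, 22.2, 13.8, 18.6 and 43.9 in cKO, 13.2 and 10.7 in 3E13 and 9.05, 9.1 and 9.23 in 6E13. Ccl9 showed the same order, again without overlap (log2 fold change 3.38 ± 0.60 (SE), adjusted p = 0.000554 in LV, log2 fold change 2.28 ± 0.38 (SE), adjusted p = 0.000686 in RV), and 1.78 (adjusted p = 2.67e-05) in LV without animal 177.

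Both genes were also called lower in treated hearts than in cKO. In RV, 6E13 libraries lay below all cKO libraries for Ccl6 (log2 fold change -0.98 ± 0.16 (SE), adjusted p = 0.00166) and Ccl9 (log2 fold change -1.43 ± 0.36 (SE), adjusted p = 0.0148). In LV, 6E13 was lower than cKO for Ccl6 (log2 fold change -2.52 ± 0.75 (SE), adjusted p = 0.0322) and Ccl9 (log2 fold change -2.33 ± 0.69 (SE), adjusted p = 0.0314), and 3E13 for Ccl9 (log2 fold change -2.17 ± 0.61 (SE), adjusted p = 0.034). Those LV calls did not hold without animal 177, with log2 fold changes of -0.83 (adjusted p = 0.0929), -0.73 (adjusted p = 0.0506) and -0.58 (adjusted p = 0.106). The LV call of Ccl6 did not hold without 6E13 250, 6E13 631 or 6E13 645 (log2 fold change -2.48 to -2.57, adjusted p = 0.0981 to 0.1). That of Ccl9 at 6E13 did not hold without 6E13 250, 6E13 631 or 6E13 645 (log2 fold change -2.29 to -2.36, adjusted p = 0.0887 to 0.106). That of Ccl9 at 3E13 did not hold without 3E13 181, 3E13 252 or 3E13 253 (log2 fold change -2.04 to -2.17, adjusted p = 0.0781 to 0.0971). In RV, the 6E13 call of Ccl9 did not hold without 6E13 631 or 6E13 645 (log2 fold change -1.43 to -1.44, adjusted p = 0.0533 to 0.0572). Ccl6 in 3E13 RV was above WT (log2 fold change 1.24 ± 0.19 (SE), adjusted p = 0.00269) without overlap.

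**Figure D2:**
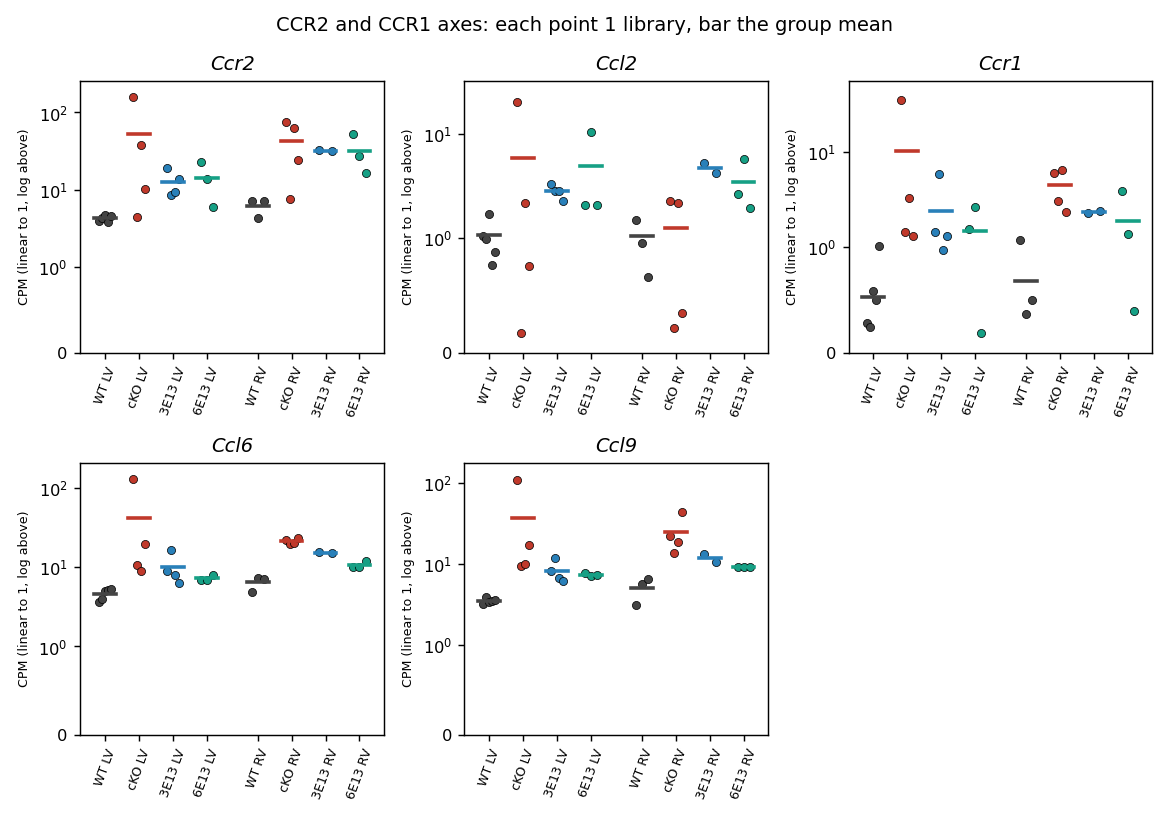
Levels of Ccr2, Ccl2, Ccr1, Ccl6 and Ccl9 in CPM (linear to 1, logarithmic above), with 1 point per library and a bar at the group mean. The highest cKO LV point in each panel is animal 177, at 159.7 CPM for Ccr2 and 127 for Ccl6, and for Ccl6 and Ccl9 all cKO points lie above all WT points in both ventricles.

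Ccl3, Ccl4 and Ccl5 are inflammatory CC ligands made by macrophages and T cells. In LV, Ccl3 measured 0.142, 0, 0.11, 0 and 0.114 CPM in WT, 1.2, 0.169, 0.60 and 0.294 in cKO, 0.413, 0.526, 0.973 and 0.481 in 3E13 and 0.417, 4.77 and 0.50 in 6E13. In RV, Ccl3 measured 0.0492, 0.0453 and 0.206 CPM in WT, 0.683, 0.0862, 0.874 and 0.0386 in cKO, 0.558 and 0.455 in 3E13 and 0.318, 1.58 and 0.618 in 6E13. Ccl3 (MIP-1α) was low throughout, was highest in 6E13 LV animal 631, and was called in cKO LV (log2 fold change 2.85 ± 0.92 (SE), adjusted p = 0.0238), though not without animal 177 (2.17, adjusted p = 0.0916). Ccl4 (MIP-1β) stayed below 1 CPM in group mean. In RV it was at 0 in all WT libraries, and the cKO mean was at least 1.77-fold and the 3E13 mean at least 3.05-fold above a floor of 3 counts per WT library (adjusted p = 0.0138 and 0.0362). In LV its WT libraries held 1 count in all, and cKO was called higher (adjusted p = 0.0218). The 3E13 RV call of Ccl4 did not hold without WT 636, WT 637, WT 647, 3E13 181 or 3E13 253 (adjusted p = 0.0723 to 0.148). Its cKO LV call did not hold without WT 636 or cKO 257 (adjusted p = 0.0525 to 0.0635).

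Ccl11 (eotaxin), the main ligand of the eosinophil receptor CCR3, went the other way. In LV, Ccl11 measured 0.567, 2.01, 2.42, 3.24 and 1.14 CPM in WT, 1.18, 0.303, 0.12 and 0.164 in cKO, 0.413, 0.263, 0.932 and 0.481 in 3E13 and 0.389, 2.19 and 2.45 in 6E13. In RV, Ccl11 measured 3.1, 6.52 and 2.92 CPM in WT, 0.205, 0.215, 0.0648 and 0.309 in cKO, 1.44 and 0.28 in 3E13 and 0.667, 2.8 and 2.52 in 6E13. In RV all cKO libraries lay below all WT libraries (log2 fold change -4.38 ± 0.70 (SE), adjusted p = 0.000566), and all 6E13 libraries above all cKO libraries (log2 fold change 3.31 ± 0.69 (SE), adjusted p = 0.00611). In LV, cKO was lower than WT with overlap through animal 177 (log2 fold change -2.07 ± 0.72 (SE), adjusted p = 0.036), and -3.25 (adjusted p = 0.00335) without it. The LV call did not hold without WT 626, WT 636, WT 637, cKO 180, cKO 257 or cKO 264 (log2 fold change -1.77 to -2.05, adjusted p = 0.0563 to 0.0905). Ccl24 (eotaxin-2) ranged from 0 to 1.27 CPM and was never called, and Ccr3 itself was below the filter.

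CXCL9 and CXCL10 attract CXCR3-bearing T cells and natural killer cells, and CCL5 (RANTES) attracts T cells and monocytes. The 250 bases before the start of the GENCODE canonical transcript are shown for these 3 genes, called higher in 3E13 RV than in WT RV, and for Ccl6 and Ccl9, called lower in 6E13 RV than in cKO RV. In GRCm39 they lie at chr5:92475946-92476195 (Cxcl9), chr5:92496749-92496998 (Cxcl10), chr11:83421346-83421595 (Ccl5), chr11:83483914-83484163 (Ccl6) and chr11:83469468-83469717 (Ccl9), and all are printed 5′ to 3′ on the reverse strand. Capitals mark matches on either strand to GAAANNGAA (an interferon response element type), GGAAANNCC or GGGANTTCC (kappaB types) and TATAAA.
Cxcl9: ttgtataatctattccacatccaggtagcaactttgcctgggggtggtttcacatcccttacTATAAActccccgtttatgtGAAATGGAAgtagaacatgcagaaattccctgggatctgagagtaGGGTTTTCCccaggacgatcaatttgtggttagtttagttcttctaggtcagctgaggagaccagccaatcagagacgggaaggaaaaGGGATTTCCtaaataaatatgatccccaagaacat
Cxcl10: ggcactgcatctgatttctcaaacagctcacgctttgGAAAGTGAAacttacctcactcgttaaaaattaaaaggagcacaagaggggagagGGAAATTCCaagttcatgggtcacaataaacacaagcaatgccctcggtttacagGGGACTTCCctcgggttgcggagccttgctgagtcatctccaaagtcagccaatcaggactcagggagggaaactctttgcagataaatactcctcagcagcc
Ccl5: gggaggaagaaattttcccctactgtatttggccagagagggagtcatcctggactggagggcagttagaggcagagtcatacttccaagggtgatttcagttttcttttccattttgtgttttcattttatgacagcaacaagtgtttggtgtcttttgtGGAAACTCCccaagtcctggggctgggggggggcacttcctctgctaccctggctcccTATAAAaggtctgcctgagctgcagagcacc
Ccl6: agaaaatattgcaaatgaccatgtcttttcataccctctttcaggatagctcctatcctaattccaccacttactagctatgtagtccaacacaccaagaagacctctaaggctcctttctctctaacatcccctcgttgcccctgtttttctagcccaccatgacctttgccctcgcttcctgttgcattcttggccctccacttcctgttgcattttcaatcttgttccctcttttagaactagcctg
Ccl9: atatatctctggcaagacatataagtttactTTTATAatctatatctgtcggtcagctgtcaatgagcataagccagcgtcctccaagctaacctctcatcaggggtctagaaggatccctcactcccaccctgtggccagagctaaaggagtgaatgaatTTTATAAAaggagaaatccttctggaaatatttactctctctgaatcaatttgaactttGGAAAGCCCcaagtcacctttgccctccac

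Over 21751 promoters of this length, GAAANNGAA was found in 7.55%, GGAAANNCC in 4.86%, GGGANTTCC in 1.37% and TATAAA in 11.9%, both strands searched. Among the 59 members the shares were 16.9%, 22%, 3.39% and 20.3%. TTCNNNGAA (the GAS type) was found in 7.69% of all and 11.9% of members, and in none of the 5 windows shown. Cxcl9 and Cxcl10 held GAAANNGAA at 168 to 160 and 213 to 205 bases before the start, and the other windows shown did not. In Cxcl9 the 2 kappaB types overlap at 35 to 27 bases before the start, and in Ccl9 TATAAA matches of both strands overlap. Ccl6 matched none of these letters. A match describes letters in a window and no binding was measured.

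In LV, Cxcl9 measured 3.5, 1.56, 4.27, 5.4 and 6.71 CPM in WT, 1.88, 0.506, 4.2 and 2.36 in cKO, 15.7, 3.52, 13.6 and 18.2 in 3E13 and 10.3, 6.74 and 6.99 in 6E13. In RV, Cxcl9 measured 3.64, 4.3 and 4.69 CPM in WT, 3.48, 0.646, 3.01 and 1.47 in cKO, 21.3 and 25.8 in 3E13 and 13.2, 13.2 and 8.61 in 6E13. For Cxcl9 all cKO RV libraries lay below the lowest WT library, without a call (log2 fold change -0.95 ± 0.41 (SE), adjusted p = 0.0913). In LV, 3E13 was above cKO (log2 fold change 2.51 ± 0.57 (SE), adjusted p = 0.0139), with animal 182 inside the cKO range, and 6E13 was above cKO without overlap (log2 fold change 1.84 ± 0.59 (SE), adjusted p = 0.0435), a call that did not hold without cKO animal 177 (1.77, adjusted p = 0.0759). That 6E13 call also did not hold without cKO 180, cKO 264, 6E13 250, 6E13 631 or 6E13 645 (log2 fold change 1.51 to 1.95, adjusted p = 0.0619 to 0.134). In RV, both 3E13 (log2 fold change 3.44 ± 0.44 (SE), adjusted p = 0.00774) and 6E13 (log2 fold change 2.42 ± 0.41 (SE), adjusted p = 0.00203) lay above all cKO libraries. The 3E13 RV libraries also lay above WT (log2 fold change 2.48 ± 0.47 (SE), adjusted p = 0.00897), and 6E13 RV did so without a call (log2 fold change 1.47 ± 0.44 (SE), adjusted p = 0.161). The call of 3E13 against cKO RV did not hold without 3E13 181 or 3E13 253 (log2 fold change 3.30 to 3.57, adjusted p = 0.0534 to 0.0635). The call of 3E13 against WT RV did not hold without 3E13 253 (log2 fold change 2.34, adjusted p = 0.0751).

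In LV, Cxcl10 measured 0.142, 0.369, 0.523, 0.90 and 0.267 CPM in WT, 1.74, 0.27, 1.8 and 0.883 in cKO, 1.61, 1.05, 1.74 and 3.32 in 3E13 and 2.7, 2.1 and 1.41 in 6E13. In RV, Cxcl10 measured 0.443, 0 and 0.165 CPM in WT, 2.73, 0.345, 1.72 and 1.58 in cKO, 4.39 and 3.95 in 3E13 and 3.68, 1.73 and 2.03 in 6E13. Cxcl10 was higher than WT in cKO RV (log2 fold change 2.98 ± 0.84 (SE), adjusted p = 0.0158), where animal 180 fell in the WT range, and in 3E13 RV without overlap (log2 fold change 4.36 ± 0.93 (SE), adjusted p = 0.016). The cKO call did not hold without WT 647 (log2 fold change 2.86, adjusted p = 0.0595). The 3E13 call did not hold without WT 647, 3E13 181 or 3E13 253 (log2 fold change 4.24 to 4.43, adjusted p = 0.0571 to 0.0732). In LV, Cxcr3 measured 0.236, 0.246, 0.11, 0.135 and 0.0381 CPM in WT, 0.728, 0.169, 0.78 and 0.294 in cKO, 0.619, 0.21, 0.567 and 1.31 in 3E13 and 0.834, 0.656 and 0.0454 in 6E13. In RV, Cxcr3 measured 0.148, 0.588 and 0.124 CPM in WT, 1.54, 0.172, 1.07 and 0.348 in cKO, 3.19 and 4.16 in 3E13 and 0.731, 1.25 and 1.37 in 6E13. The receptor Cxcr3 was called in 3E13 RV against WT alone (log2 fold change 3.66 ± 0.86 (SE), adjusted p = 0.0247), where both libraries exceeded every other library of the series. That call did not hold without WT 636, WT 647, 3E13 181 or 3E13 253 (log2 fold change 3.29 to 3.84, adjusted p = 0.0759 to 0.131).

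In LV, Ccl5 measured 0.0946, 0.287, 0.468, 0.675 and 0.343 CPM in WT, 1.2, 0.843, 1.95 and 1.6 in cKO, 2.48, 0.263, 2.76 and 4.46 in 3E13 and 2.36, 1.97 and 1.14 in 6E13. In RV, Ccl5 measured 0.394, 0.362 and 0.206 CPM in WT, 2.25, 1.51, 1.59 and 1.66 in cKO, 6.74 and 7.55 in 3E13 and 1.97, 3.06 and 3.05 in 6E13. Ccl5 was above WT in cKO LV (log2 fold change 1.88 ± 0.60 (SE), adjusted p = 0.0222) and RV (log2 fold change 2.45 ± 0.33 (SE), adjusted p = 0.000181) without overlap. It was above WT in 3E13 LV (log2 fold change 2.72 ± 0.60 (SE), adjusted p = 0.0273), with animal 182 inside the WT range, and in RV at both doses (log2 fold change 4.47 ± 0.37 (SE), adjusted p = 0.000114 for 3E13 and log2 fold change 3.06 ± 0.34 (SE), adjusted p = 0.00269 for 6E13). In 3E13 RV it also exceeded cKO (log2 fold change 2.02 ± 0.30 (SE), adjusted p = 0.00873), and Ccl5 was the 1 member called in 6E13 RV against WT. The cKO LV call did not hold without cKO 257 (log2 fold change 1.67, adjusted p = 0.0574). The 3E13 LV call did not hold without WT 248, WT 626, WT 647, 3E13 181, 3E13 252 or 3E13 253 (log2 fold change 2.28 to 2.71, adjusted p = 0.0626 to 0.0791). The call of 3E13 against cKO RV did not hold without 3E13 181 or 3E13 253 (log2 fold change 1.95 to 2.11, adjusted p = 0.0867 to 0.087).

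Markers of T and natural killer cells (10 genes) summed in LV to 1.7 to 3.85 CPM in WT, 3.61 to 9.3 in cKO, 2.79 to 16.1 in 3E13 and 5.49 to 8.14 in 6E13. In RV they summed to 1.77 to 2.66 CPM in WT, 4.61 to 12.5 in cKO, 19.6 to 30.6 in 3E13 and 9.41 to 10.1 in 6E13, and Nkg7 was at 0 in all WT RV libraries. In 3E13 RV, 4 of 8 tested markers were higher than in cKO and 6 higher than in WT, and their part in the CXCR3 and Ccl5 values was not tested. Of genes that act upstream, Irf1 was higher in 3E13 than in cKO RV (log2 fold change 1.42 ± 0.34, adjusted p = 0.0298). These marker and Irf1 values come from the comparison whose calls over all genes fell from 1488 to 9 and 8 without 1 of the 2 3E13 RV libraries, and they were not recomputed without one.

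**Figure D3:**
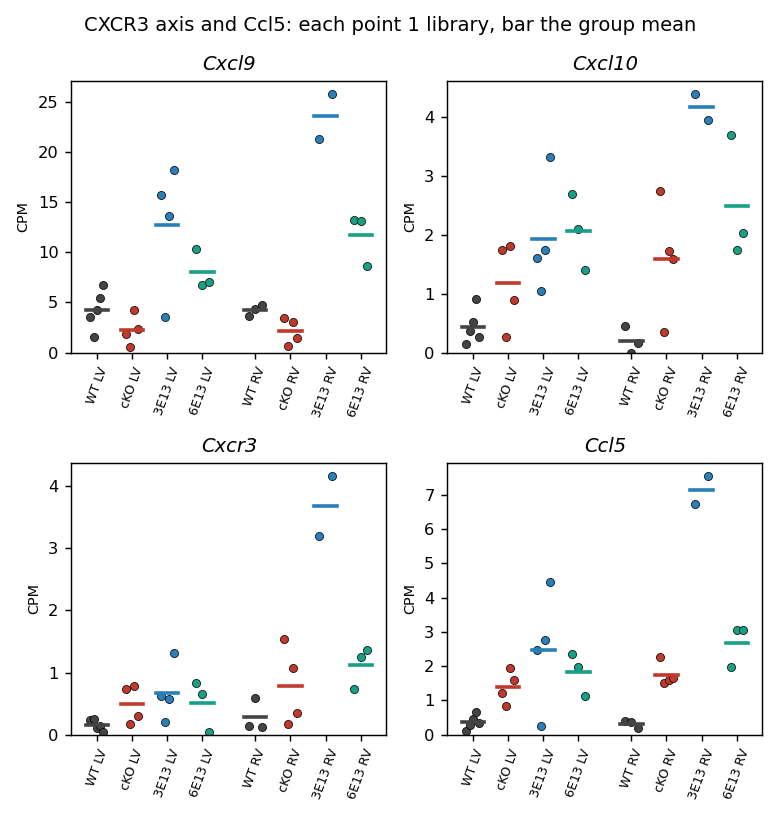
Levels of Cxcl9, Cxcl10, Cxcr3 and Ccl5 in CPM on linear axes, with 1 point per library and a bar at the group mean. The 2 libraries of 3E13 RV are the highest of all for each gene, for example 21.3 and 25.8 CPM for Cxcl9.

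CCL19 and CCL21 draw CCR7-bearing dendritic cells and T cells to lymphatic vessels and lymphoid tissue. Their mouse genes have near-identical copies on chromosome 4: Ccl21b shares 100% and Ccl21a 62.6% of its 31-base words with the Ccl21 copies, and Ccl19 shares 82.8% with Gm3892 and others. How reads were divided among copies is thus uncertain, and sums over the copies found in the gene table are given too. The copies Ccl21d, Ccl21e, Ccl21f and Gm70700 are not there under those names, so the sums do not settle the division. In LV, Ccl21a measured 12.4, 16.2, 14.1, 13.3 and 14.4 CPM in WT, 22.2, 19.2, 44.4 and 16.1 in cKO, 20.8, 2.26, 22.5 and 19.5 in 3E13 and 10.5, 19.3 and 18.2 in 6E13. In RV, Ccl21a measured 11.8, 14.6 and 25 CPM in WT, 77.9, 49.1, 52.9 and 49.4 in cKO, 47.1 and 47.3 in 3E13 and 17.4, 9.8 and 38.6 in 6E13. In RV all cKO libraries exceeded all WT libraries (log2 fold change 1.74 ± 0.41 (SE), adjusted p = 0.00576), and all 6E13 libraries lay below all cKO ones (log2 fold change -1.39 ± 0.40 (SE), adjusted p = 0.0283). The 6E13 call did not hold without cKO 177, 6E13 250 or 6E13 631 (log2 fold change -1.04 to -1.25, adjusted p = 0.0634 to 0.0951). Ccl21b, never called, ranged from 0 to 33.5 CPM. The sum of Ccl21a and Ccl21b in RV was 20.8, 16.8 and 38.3 CPM in WT, 111, 75.1, 79.5 and 80.2 in cKO, 64.3 and 73.1 in 3E13 and 17.4, 10.5 and 60.5 in 6E13, which keeps that order.

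In LV, Ccl19 measured 0.378, 0.451, 0.523, 0.18 and 0.0762 CPM in WT, 0.476, 1.31, 1.74 and 1.14 in cKO, 0.619, 0.316, 0.324 and 0.35 in 3E13 and 0.473, 0.831 and 0.681 in 6E13. In RV, Ccl19 measured 0.0984, 0.226 and 0.535 CPM in WT, 3.07, 3.02, 1.88 and 4.09 in cKO, 3.11 and 1.29 in 3E13 and 0.508, 0.516 and 0.707 in 6E13. Ccl19 was higher than WT in cKO LV (log2 fold change 1.83 ± 0.50 (SE), adjusted p = 0.00971) and RV (log2 fold change 3.35 ± 0.56 (SE), adjusted p = 0.000717), and lower in 6E13 than in cKO RV (log2 fold change -2.38 ± 0.52 (SE), adjusted p = 0.00747), in RV without overlap. It was above WT in 3E13 RV (log2 fold change 2.89 ± 0.60 (SE), adjusted p = 0.014). The 3E13 call did not hold without WT 637 or 3E13 181 (log2 fold change 2.14 to 2.75, adjusted p = 0.0632 to 0.164). Summed with Gm3892 and Gm13307 it was 1.43, 0.453 and 1.52 CPM in WT RV, 4.95, 6.81, 4.57 and 6.6 in cKO RV, 4.35 and 3.78 in 3E13 RV and 1.33, 0.627 and 1.24 in 6E13 RV. The receptor Ccr7 stayed below 1 CPM in group mean and was called in cKO LV (log2 fold change 2.07 ± 0.68 (SE), adjusted p = 0.0273), but not without animal 177 (1.24, adjusted p = 0.171). That call also did not hold without WT 248, WT 636 or WT 647 (log2 fold change 1.75 to 2.05, adjusted p = 0.0525 to 0.0615).

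Ackr1 (the Duffy antigen receptor), carried by venular endothelium, binds inflammatory chemokines and presents them to leukocytes. In LV, Ackr1 measured 0, 0.082, 0.0275, 0 and 0.191 CPM in WT, 1.29, 0.337, 0.42 and 0.36 in cKO, 0.0826, 1.63, 0.0811 and 0.175 in 3E13 and 0.584, 0.438 and 0.272 in 6E13. In RV, Ackr1 measured 0.0984, 0 and 0.0412 CPM in WT, 1.2, 1.21, 0.939 and 2.24 in cKO, 0.997 and 0.385 in 3E13 and 0.318, 0.442 and 0.0884 in 6E13. Every cKO library exceeded every WT library in both ventricles (LV log2 fold change 3.21 ± 1.01 (SE), adjusted p = 0.0221, and RV adjusted p = 0.00132 with 3 WT counts in all, hence no fold). In LV the value without animal 177 was 2.51 (adjusted p = 0.08). It was lower in 6E13 than in cKO RV (log2 fold change -2.27 ± 0.70 (SE), adjusted p = 0.0387), and above WT in 3E13 RV (adjusted p = 0.0322). The cKO LV call did not hold without WT 636 (log2 fold change 2.99, adjusted p = 0.0534). The 6E13 RV call did not hold without cKO 177, cKO 264, 6E13 250, 6E13 631 or 6E13 645 (log2 fold change -1.86 to -2.71, adjusted p = 0.0554 to 0.132). The 3E13 RV call did not hold without WT 637, WT 647, 3E13 181 or 3E13 253 (adjusted p = 0.0632 to 0.244). Ackr1 shares exons on the same strand with Cadm3, to which 23% of its 31-base words also belong, so its level is uncertain. The 4 lymphatic endothelial markers were 3 higher and 1 lower in cKO in each ventricle, the lower one being Prox1, also present in cardiomyocytes. In 6E13 against cKO RV, 3 were lower and Prox1 was higher. The 4 summed to 229 to 283 CPM in WT, 245 to 346 in cKO, 228 to 238 in 3E13 and 194 to 252 in 6E13 in RV, none was at 0 throughout a group, and their part was not tested.

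**Figure D4:**
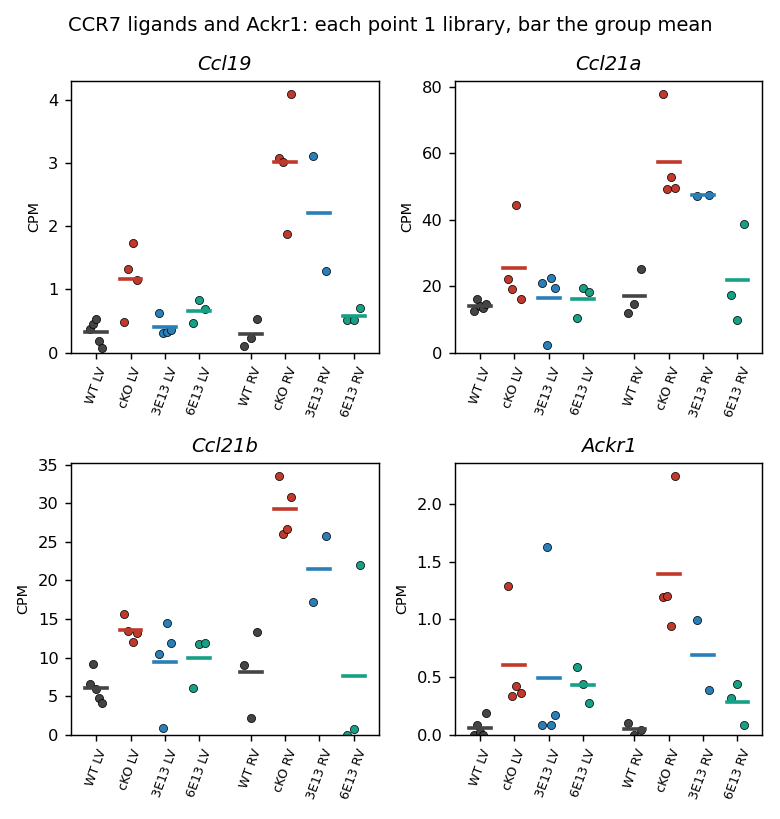
Levels of Ccl19, Ccl21a, Ccl21b and Ackr1 in CPM on linear axes, with 1 point per library and a bar at the group mean. For Ccl19, Ccl21a and Ackr1 all cKO RV points lie above all WT RV points, and 6E13 RV points lie below all cKO RV points.

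CXCR2 guides neutrophils towards CXCL1, CXCL2 and CXCL5. In LV, Cxcr2 measured 0.284, 0.164, 0.248, 0.045 and 0 CPM in WT, 21.8, 0.101, 0.39 and 0.0654 in cKO, 0.165, 1.63, 0.0405 and 0.262 in 3E13 and 0.0834, 0.438 and 0 in 6E13. In RV, Cxcr2 measured 0.738, 0.498 and 0.453 CPM in WT, 2.63, 0.258, 1.07 and 0.193 in cKO, 0.837 and 0.175 in 3E13 and 0.191, 0.111 and 0.177 in 6E13. The call in cKO LV (log2 fold change 5.18 ± 1.57 (SE), adjusted p = 0.0176) rested on animal 177, and without it the value was 0.31 (adjusted p = 0.874). In LV, Cxcl5 measured 0.0473, 0.123, 0, 0 and 0.191 CPM in WT, 13.9, 0, 0.72 and 0.458 in cKO, 0.413, 1.68, 0 and 0.262 in 3E13 and 0.195, 0.569 and 0 in 6E13. In RV, Cxcl5 measured 0, 0.0905 and 0.741 CPM in WT, 4.1, 0.215, 1.91 and 2.55 in cKO, 1.59 and 1.22 in 3E13 and 0.349, 0.258 and 0.928 in 6E13. The same held for Cxcl5 in cKO LV (log2 fold change 5.65 ± 1.61 (SE), adjusted p = 0.0127, and 2.39 (adjusted p = 0.209) without animal 177). In LV, Cxcl2 measured 0, 0, 0.0275, 0.18 and 0 CPM in WT, 2.58, 0, 0.36 and 1.9 in cKO, 0, 0, 0 and 0.175 in 3E13 and 0.111, 0.35 and 0 in 6E13. In RV, Cxcl2 measured 0, 0.0453 and 0.0824 CPM in WT, 1.23, 0.172, 0.162 and 1.7 in cKO, 0.279 and 0 in 3E13 and 0.0953, 0.405 and 0.221 in 6E13. Cxcl2 was called in cKO LV (log2 fold change 4.78 ± 1.39 (SE), adjusted p = 0.0141) and RV, where WT held 3 counts and no fold is given (adjusted p = 0.0355). The RV call of Cxcl2 did not hold without WT 636, WT 637 or WT 647 (adjusted p = 0.0676 to 0.0979). Cxcl2 no longer passed the filter in LV without cKO 177, cKO 257 or cKO 264, nor in RV without cKO 177 or cKO 264.

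In LV, Cxcl1 measured 0.52, 0.779, 0.413, 1.26 and 0.496 CPM in WT, 5.13, 0.27, 0.99 and 0.785 in cKO, 1.11, 0.894, 1.26 and 0.83 in 3E13 and 0.556, 7.35 and 1.77 in 6E13. In RV, Cxcl1 measured 0.836, 0.724 and 0.782 CPM in WT, 2.29, 0.431, 0.356 and 0.657 in cKO, 1.32 and 1.22 in 3E13 and 1.11, 3.17 and 1.86 in 6E13. Cxcl1 was never called, and its highest values were animal 177 in cKO and animal 631 in 6E13. Neutrophil markers (8 genes) summed to 1.32 to 2.45 CPM in WT, 2.39 to 86 in cKO, 1.95 to 12.4 in 3E13 and 3.17 to 4.11 in 6E13 in LV and 1.28 to 2.21 CPM in WT, 3.7 to 20.2 in cKO, 4.37 to 5.74 in 3E13 and 3.14 to 6.13 in 6E13 in RV. Most of the sum in animal 177 of cKO LV was Csf3r, and Ly6g was at 0 in every library. Their part in the CXCR2 results was not tested.

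CXCL12 is the constant stromal ligand of CXCR4, and ACKR3 removes it. Compared per transcript length, Cxcl12 was the most abundant member, with 56.7 ± 7.05 TPM in WT LV (SD, n = 5) against 19.5 ± 2.05 for Ackr3 and 13.2 ± 1.06 for Ccl21a. In LV, Cxcl12 measured 283, 298, 303, 236 and 258 CPM in WT, 294, 309, 189 and 161 in cKO, 223, 364, 233 and 207 in 3E13 and 231, 227 and 228 in 6E13. In RV, Cxcl12 measured 416, 243 and 238 CPM in WT, 169.6, 257, 214 and 202 in cKO, 210.2 and 203 in 3E13 and 225, 249.7 and 231 in 6E13. Cxcl12 was never called, and cKO and WT overlapped in both ventricles. In LV, Cxcr4 measured 3.59, 4.51, 6.33, 5.85 and 4.12 CPM in WT, 50.2, 5.7, 10.6 and 12.8 in cKO, 8.01, 3.89, 10.2 and 7.91 in 3E13 and 9.76, 7.53 and 5.49 in 6E13. In RV, Cxcr4 measured 9.99, 5.52 and 6.34 CPM in WT, 47.2, 7.41, 10.5 and 13.1 in cKO, 10.7 and 12.3 in 3E13 and 11.6, 10.7 and 6.1 in 6E13. Cxcr4, carried by most leukocytes, was higher in cKO LV (log2 fold change 2.02 ± 0.48 (SE), adjusted p = 0.00457, and 0.98 (adjusted p = 0.0232) without animal 177), with overlap through animal 180.

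In LV, Ackr3 measured 54.1, 60.4, 64.7, 56.6 and 58.7 CPM in WT, 23.5, 38.6, 35.4 and 41 in cKO, 54, 53.5, 55.3 and 52.9 in 3E13 and 49.6, 76.7 and 59.8 in 6E13. In RV, Ackr3 measured 59.9, 52.4 and 59.8 CPM in WT, 32.8, 40, 35.1 and 49.2 in cKO, 68.7 and 52.9 in 3E13 and 45.8, 56 and 61.9 in 6E13. Ackr3 (chr1:90131689-90144473, forward strand) was lower in all cKO LV libraries than in all WT LV libraries (log2 fold change -0.77 ± 0.15 (SE), adjusted p = 0.000919). In LV the treated libraries lay above all cKO libraries at both doses (log2 fold change 0.64 ± 0.15 (SE), adjusted p = 0.0165 for 3E13 and log2 fold change 0.84 ± 0.16 (SE), adjusted p = 0.0037 for 6E13). In RV, 3E13 lay above all cKO libraries (log2 fold change 0.63 ± 0.18 (SE), adjusted p = 0.0472). Ackr3 in RV was lower in cKO than in WT (log2 fold change -0.55 ± 0.16 (SE), adjusted p = 0.017) and higher in 6E13 than in cKO (log2 fold change 0.47 ± 0.16 (SE), adjusted p = 0.04999, with overlap), but on log2(TPM + 1) these signs turned, to 0.28 and -0.06. On that scale the medians of all genes were 0.54 and -0.37 in the same comparisons. There the 3E13 call in RV did not hold either (0.01, adjusted p = 0.98, median of all genes -0.40), nor did any of the LV calls. Those were cKO against WT (-0.21, adjusted p = 0.23), and 3E13 (0.24, adjusted p = 0.247) and 6E13 (0.38, adjusted p = 0.0971) against cKO. The medians of all genes were 0.37, -0.27 and -0.29 in that order. In RV the cKO call did not hold without the 2 libraries with atrial RNA (-0.49, adjusted p = 0.0772), nor did the 6E13 call (0.42, adjusted p = 0.162) or the 3E13 call (0.58, adjusted p = 0.107). In RV, the cKO call did not hold without WT 636 or WT 647 (log2 fold change -0.52, adjusted p = 0.0506 to 0.0563). The 3E13 call in RV did not hold without cKO 177, cKO 180, cKO 257, 3E13 181 or 3E13 253 (log2 fold change 0.43 to 0.82, adjusted p = 0.06 to 0.397). The 6E13 call in RV did not hold without cKO 177, cKO 180, cKO 257, 6E13 631 or 6E13 645 (log2 fold change 0.37 to 0.48, adjusted p = 0.0706 to 0.201). Of 6 fibroblast markers, 5 were higher in cKO LV and 6 in cKO RV, and of 6 blood endothelial markers 2 were higher and 1 lower in LV, and 1 each in RV. Their part was not tested.

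CXCL16 and CX3CL1 are made as membrane-bound proteins that also act as adhesion molecules. In LV, Cxcl16 measured 6.86, 9.18, 8.2, 8.64 and 10.4 CPM in WT, 51.5, 12.2, 35.3 and 23.8 in cKO, 21, 14.5, 18.1 and 23.9 in 3E13 and 20.9, 15.3 and 13.9 in 6E13. In RV, Cxcl16 measured 10.6, 10 and 11.2 CPM in WT, 72.2, 19.7, 38.7 and 38.4 in cKO, 33.3 and 33.7 in 3E13 and 31.1, 19.6 and 20.3 in 6E13. All cKO libraries exceeded all WT libraries for Cxcl16 in both ventricles (log2 fold change 1.82 ± 0.30 (SE), adjusted p = 0.000343 in LV and log2 fold change 1.99 ± 0.35 (SE), adjusted p = 0.00104 in RV). All treated libraries also lay above WT, with a call in 3E13 RV (log2 fold change 1.66 ± 0.39 (SE), adjusted p = 0.0258). That call did not hold without WT 636, WT 637, WT 647, 3E13 181 or 3E13 253 (log2 fold change 1.62 to 1.70, adjusted p = 0.0649 to 0.13). Its receptor Cxcr6, found on T cell subsets, ranged from 0 to 11.2 CPM and was never called. It was at 0 counts in WT LV 636, WT RV 637 and cKO RV 264 and at 32 or more in every other library. The cause was not tested, so its level is uncertain.

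In LV, Cx3cl1 measured 11.6, 8.85, 11.8, 13.2 and 11.2 CPM in WT, 20.8, 16.3, 25.7 and 24.5 in cKO, 20.7, 14.5, 18.7 and 21.7 in 3E13 and 10.6, 17.4 and 10.4 in 6E13. In RV, Cx3cl1 measured 14.8, 10.9 and 7.95 CPM in WT, 33.5, 26.4, 35.8 and 44.4 in cKO, 27.4 and 32.8 in 3E13 and 17.1, 15.6 and 12.7 in 6E13. Cx3cl1 (fractalkine) was higher in all cKO than in all WT libraries of both ventricles (log2 fold change 0.95 ± 0.18 (SE), adjusted p = 0.00104 in LV and log2 fold change 1.65 ± 0.23 (SE), adjusted p = 0.000229 in RV). It was higher than WT in 3E13 LV (log2 fold change 0.74 ± 0.18 (SE), adjusted p = 0.0446) and RV (log2 fold change 1.43 ± 0.26 (SE), adjusted p = 0.00654), and lower than cKO in 6E13 LV (log2 fold change -0.77 ± 0.21 (SE), adjusted p = 0.0226) and RV (log2 fold change -1.21 ± 0.22 (SE), adjusted p = 0.00327), without overlap in RV. In LV, Cx3cr1 measured 3.45, 4.39, 4.54, 3.51 and 3.7 CPM in WT, 20.8, 2.33, 24 and 3.34 in cKO, 12.2, 2.52, 8.43 and 10.9 in 3E13 and 7.23, 8.93 and 7.22 in 6E13. In RV, Cx3cr1 measured 4.38, 2.22 and 2.59 CPM in WT, 27.8, 4.74, 30.1 and 8.92 in cKO, 16.4 and 21.1 in 3E13 and 15.3, 10.2 and 8.7 in 6E13. Cx3cr1, its receptor on resident macrophages, was higher in cKO LV (log2 fold change 1.69 ± 0.57 (SE), adjusted p = 0.0298, and 1.33 (adjusted p = 0.099) without animal 177), in cKO RV (log2 fold change 2.55 ± 0.59 (SE), adjusted p = 0.00514) and in 3E13 RV (log2 fold change 2.62 ± 0.64 (SE), adjusted p = 0.0308). In LV animals 180 and 264 of cKO fell below the WT range. The 6E13 LV call of Cx3cl1 did not hold without cKO 257, cKO 264, 6E13 250 or 6E13 645 (log2 fold change -0.64 to -0.71, adjusted p = 0.0506 to 0.117). Its 3E13 LV call did not hold without WT 248, WT 626, WT 636, WT 637, WT 647, 3E13 181, 3E13 252 or 3E13 253 (log2 fold change 0.66 to 0.80, adjusted p = 0.0631 to 0.133). Its 3E13 RV call did not hold without 3E13 253 (log2 fold change 1.29, adjusted p = 0.0755). The cKO LV call of Cx3cr1 did not hold without WT 248, WT 626, WT 637, WT 647 or cKO 257 (log2 fold change 1.16 to 1.72, adjusted p = 0.0502 to 0.131). Its 3E13 RV call did not hold without WT 637, WT 647, 3E13 181 or 3E13 253 (log2 fold change 2.42 to 2.79, adjusted p = 0.0942 to 0.161).

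**Figure D5:**
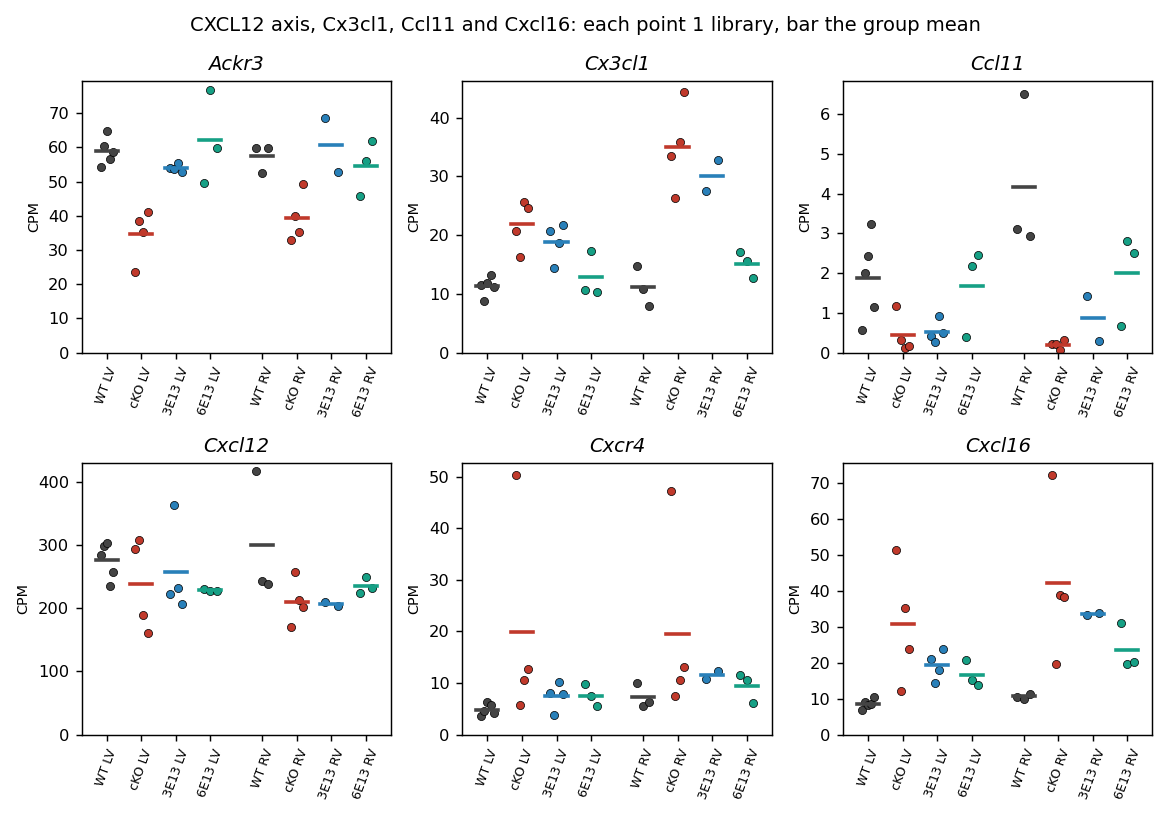
Levels of Ackr3, Cx3cl1, Ccl11, Cxcl12, Cxcr4 and Cxcl16 in CPM on linear axes, with 1 point per library and a bar at the group mean. All cKO LV points lie below all WT LV points for Ackr3 and above them for Cx3cl1 and Cxcl16. On log2(TPM + 1) the LV calls of Ackr3 did not hold and its order in RV turned. The median of all genes in cKO against WT RV was 0.54 on that scale.

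CXCL13 attracts CXCR5-bearing B cells. In LV, Cxcl13 measured 0.189, 0.205, 0.0826, 0.135 and 0.61 CPM in WT, 0, 0.405, 0.030 and 0.785 in cKO, 0.454, 8.41, 0.648 and 0.787 in 3E13 and 0.139, 0.306 and 2.54 in 6E13. In RV, Cxcl13 measured 0, 0.181 and 0.412 CPM in WT, 0.512, 2.2, 3.17 and 6.76 in cKO, 1.28 and 3.18 in 3E13 and 0.0953, 1.03 and 3.4 in 6E13. In RV all cKO libraries lay above all WT libraries (log2 fold change 3.92 ± 1.25 (SE), adjusted p = 0.0273). That call did not hold without WT 636, WT 637 or cKO 264 (log2 fold change 3.24 to 3.85, adjusted p = 0.0644 to 0.0846). Within the cKO hearts, with the animal as a block, Cxcl13 was the 1 member called between ventricles, higher in RV by 3.67 ± 0.67 (SE) on the log2 scale, adjusted p = 0.015, where 1.89% of all genes were higher and 2.19% lower. All 4 cKO animals showed this direction, and without animal 264 the value was 4.13 (adjusted p = 0.067). There were 3 calls without animal 177, 4 without 257 and 0 without 264, where 733 calls over all genes became 1051, 660 and 127. In the full fit, 8 members had an unadjusted p under 0.05, and the share of all genes at that cut was not counted. Cxcr5 ranged from 0.0454 to 1.26 CPM and was never called. The 4 B cell markers summed to 0.70 to 1.95 CPM in WT, 1.42 to 2.39 in cKO, 2.43 to 2.66 in 3E13 and 0.442 to 1.87 in 6E13 in RV.

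For the difference of the cKO effects between RV and LV, edgeR called 0 members, where 0.0111% of all genes were called. DESeq2 called 1 member, and 244 of all genes against 2 by edgeR. Of the members, 6 had an unadjusted p under 0.05, and the share of all genes at that cut was not counted. The calls made in 1 ventricle alone (Ccl2, Ccl22, Ccl3, Ccr7, Cxcl5, Cxcr2 and Cxcr4 in LV, and Ccl12, Ccl21a, Cxcl10 and Cxcl13 in RV) are thus not shown to differ between ventricles.

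Ccl22, a ligand of CCR4 on regulatory T cells, was called in cKO LV (adjusted p = 0.000988), where WT held 2 counts in all, so no fold is given. In LV, Ccl22 measured 0, 0.041, 0, 0.045 and 0 CPM in WT, 1.9, 0.641, 0.54 and 0.523 in cKO, 0.371, 0.0526, 0.446 and 0.568 in 3E13 and 0.945, 0.0438 and 0.136 in 6E13. All cKO LV libraries exceeded all WT ones. Its receptor Ccr4 did not exceed 0.560 CPM and was never called. Xcl1 (lymphotactin), made by T and natural killer cells, was at 0 in all WT RV libraries and at 0.997 and 1.05 CPM in 3E13 RV, at least 7.54-fold above the floor of 3 counts per library (adjusted p = 0.0275). That call did not hold without WT 636, WT 637, WT 647, 3E13 181 or 3E13 253 (adjusted p = 0.0583 to 0.117). Its receptor Xcr1, a marker of cross-presenting dendritic cells, measured 0.0984, 0.0905 and 0.618 CPM in WT RV and 2.67 and 3.53 in 3E13 RV, without a call.

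Of the other members tested and never called, Cxcl14 had the highest levels (4.13 to 81.1 CPM over all libraries). Ackr4, which removes CCL19, CCL21 and CCL25, ranged over 2.01 to 12.1 CPM, and Ackr2, which removes inflammatory CC chemokines, over 0 to 6.28 CPM. Ackr2 was not called in cKO against WT LV (log2 fold change 4.32 ± 1.70 (SE), adjusted p = 0.0591) or RV (log2 fold change 2.26 ± 1.38 (SE), adjusted p = 0.228). In LV it was at 0 counts in every WT library but 637, with 21, and in every 3E13 library but 253, with 60. The cause was not tested, so its level is uncertain too. Ccl25, Ccl27a, Ccl28, Ccr8, Ccr9 and Ccr10 stayed at or below 3.87 CPM in every library. Ccl27a shares 57.9% of its 31-base words with copies and is uncertain.

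Other genes of the pathway were tested in the same fits, and their results were not recomputed without cKO animal 177. Of all genes tested in cKO against WT, 19.7% were higher and 16.1% lower in LV, and 19.8% and 17.6% in RV. Of 15 genes of receptor coupling and desensitisation, 13 were higher in cKO LV and 11 in cKO RV, with none lower and medians of 1.55 and 1.15. Examples are Dock2, which drives leukocyte migration (2.36 ± 0.41, adjusted p = 0.000518 in LV), and Arrb2, which desensitises receptors (2.05 ± 0.35, adjusted p = 0.000434). Of 11 leukocyte adhesion genes, 9 were higher in each ventricle and none lower, among them Selp in RV (3.72 ± 0.48, adjusted p = 0.000155) and the integrin subunit Itgb2 in LV (2.85 ± 0.53, adjusted p = 0.00076). Of 11 inducing cytokines and transcription factors tested, 4 were higher in LV, where their median was 0.32, and 7 in RV. Of the 4 chemokine genes with other names, 3 were higher in LV and 0 in RV, Pf4 among them in LV (1.71 ± 0.48, adjusted p = 0.0113).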

How the data were processed

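RNA from LV and RV tissue of 16 mice was sequenced after a stranded total RNA library kit with removal of ribosomal RNA, although the labels give the molecule as polyA RNA. The authors quantified transcripts with Salmon 1.8.0 on GRCm39 and summed them per gene with tximport. They deposited expected counts, which need not be whole, TPM values and effective lengths per gene and library. Whether counting used strand is not given in the sources used here. Expected counts were rounded to whole numbers. A row without a gene name, holding 0.000352% to 0.000971% of counts, was left out of library sizes and tests. Columns not used numbered 0.

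Each ventricle was fitted once with all 4 groups in edgeR 4.0.16 (R 4.3.3), with filterByExpr, TMM scaling and the quasi-likelihood test, and p-values were adjusted by Benjamini-Hochberg over all genes tested (threshold 0.05). RV against LV in cKO was fitted with the animal as a block, since same-numbered libraries came from 1 animal. Deviations from group means correlated at 0.0417 to 0.357 between the ventricles of the 12 animals. The SE was taken as |log2 fold change| over root F, with F from that test. A group at 0 was set at a floor of 3 counts per library, which covers counting error only. Alternatives used RLE size factors, no filter, length offsets, DESeq2 1.42.0, limma 3.58.1 on log2(TPM + 1), fits of 2 groups and libraries left out. Leaving out the 2 cKO RV libraries with most Myl7 was added after seeing the data. On simulated data, 58% of genes with a log2 change of 1 and 86% of those with a log2 change of 2 were recovered for cKO against WT in LV, and 35% and 78% in RV.

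Members called in any comparison with a mean of at least 1 CPM in a group were described by library, with their tested ligands or receptors. The members, gene lists and tests were chosen with earlier results of these data known. Animals of 1 group are separate, and no 2 libraries agreed within sampling noise (closest pair, chi-square per degree of freedom 17.9). Some genes of the lists are counted in the totals but not reported here by name.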

Additional observations from a re-analysis of the deposited data

Results flagged for a closer look

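For called members in groups of 4 or more libraries, a library was singled out when its gap to the nearest other library was a large share of the group's range by Dixon's 95% criterion. Of 112 groups tested, 26 gave such a library. Chance flags about 1 in 20 where values are normal and groups independent, but these groups share libraries and some hold few reads. Animal 177 in cKO LV accounted for 10 and animal 182 in 3E13 LV for 5.

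The cKO LV library of animal 177 was high for Ackr1 (1.29 CPM), Ccl12 (3.70), Ccl2 (20.4), Ccl22 (1.90), Ccl6 (127), Ccl9 (110.0), Ccr1 (34.8), Cxcl5 (13.9), Cxcr2 (21.8) and Cxcr4 (50.2). The cKO RV library of the same animal was high for Ccl21a (77.9 CPM), Ccl22 (2.63) and Cxcr4 (47.2).

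The 3E13 LV library of animal 182 was high for Ackr1 (1.63 CPM), Ccr1 (5.84), Cxcl13 (8.41) and Cxcr2 (1.63) and low for Ccl21a (2.26). Other 3E13 LV libraries were high for Ccl19 (0.619 CPM in animal 181) and Cxcl2 (0.175 in animal 253) and low for Ccl8 (1.58 in animal 252).

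Ccl8 was high in the cKO RV library of animal 264 (9.73 CPM). At levels near the floor, WT LV animal 647 was high for Cxcl13 (0.610 CPM) and Xcl1 (0.0762), WT LV animal 637 for Cxcl2 (0.180) and cKO LV animal 257 for Xcl1 (0.300).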

How the results depend on the processing

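Of 1103 values of called members recomputed under the alternatives, 906 kept direction and call, 194 kept direction without the call and 3 reversed. A call lost because the member no longer passed the filter gave no value and is not among them. The fits of 2 groups gave 73 values, against 82 with RLE size factors. The reversed values were Ccl2 in cKO against WT LV without animal 177 (-0.067, where leaving out 1 cKO or WT library gave -0.067 to 2.84) and Ackr3 in RV on log2(TPM + 1) with limma (0.28 for cKO against WT and -0.059 for 6E13 against cKO). For these Ackr3 values the medians of all genes on that scale were 0.54 and -0.37. The cause of the reversals was not tested.

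Counts of called members moved by over 1.5 times as follows. Brackets give calls over all genes, which moved too, in the full fit and then under the alternative. With DESeq2 they were 7 for 3E13 against cKO LV (1932, 2884), 8 for 6E13 against cKO LV (2759, 3580), 9 for 3E13 against WT LV (411, 924) and 2 for 6E13 against WT LV (14, 104). In RV DESeq2 gave 7 for 3E13 against cKO (1488, 2762), 22 for 3E13 against WT (1278, 2135), 8 for 6E13 against WT (151, 627) and 3 between doses (7, 235). It gave 5 for RV against LV in cKO (733, 1466) and 1 for the difference of cKO effects (2, 244). With limma on log2(TPM + 1) they were 5 for 3E13 against cKO LV (1932, 3602), 1 for 3E13 against WT LV (411, 145) and 12 for 3E13 against cKO RV (1488, 5670). They were 16 for 6E13 against cKO RV (3825, 6824) and 9 for 3E13 against WT RV (1278, 496). With only the 2 groups in the fit, which leaves fewer libraries, they were 0 for 3E13 (1932, 49) and 0 for 6E13 (2759, 305) against cKO LV. They were 15 for 3E13 (411, 1776) and 5 for 6E13 (14, 182) against WT LV, 1 for 3E13 against cKO RV (1488, 78) and 2 for 6E13 against WT RV (151, 78). Length offsets gave 3 for 6E13 against cKO LV (2759, 2146). Without a filter there were 2 for 6E13 against WT RV (151, 266) and 3 for RV against LV in cKO (733, 658). Without the replicate block, which pairs the ventricles of an animal, RV against LV in cKO gave 0 against 1 with it (733, 66).

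Calls lost on log2(TPM + 1) with limma, beside Ackr3, were Ackr1, Ccl11, Ccl2, Ccl3, Ccl4, Cx3cr1, Cxcl5 and Cxcr2 in cKO against WT LV, Ccl9 in both treated comparisons with cKO LV, and Ccl6 and Cxcl9 at 6E13 there. Against WT it lost Ccl5 and Cx3cl1 in 3E13 LV and Ackr1, Ccl12, Ccl4, Cx3cr1 and Cxcl16 in 3E13 RV. With only the 2 groups in the fit, the RV calls lost at the treated doses were Ackr3 at both doses, Cxcl9 at 3E13 and Ccl21a at 6E13 against cKO. Against WT, those of Ackr1 and Ccl4 in 3E13 RV were lost. In cKO against WT LV, 13 of 23 calls were kept. Of the others, Ccl11, Ccl2, Ccr7 and Cx3cr1 were tested and not called, and Ackr1, Ccl3, Ccl4, Cxcl2, Cxcl5 and Cxcr2 no longer passed the filter. In cKO against WT RV, 18 of 20 calls were kept, and Ccl4 and Cxcl2 no longer passed the filter. Length offsets lost Ccl9 at 6E13 in both ventricles and Cx3cl1 in 6E13 against cKO LV and in 3E13 against WT LV.

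With 1 library left out, calls over all genes also moved, to 5147 to 6047 for cKO against WT LV and 5109 to 6401 in RV. They were 728 to 2714 for 3E13 against cKO LV, and 1169 to 3454 in LV and 2039 to 3989 in RV for 6E13 against cKO. Among the members, leaving out 1 library gave 13 to 25 calls for cKO against WT LV and 18 to 24 in RV. For 3E13 against cKO it gave 2 to 8 in LV and 0 to 4 in RV, for 6E13 against cKO 1 to 8 and 5 to 10, and for 3E13 against WT 1 to 4 and 4 to 10. For 6E13 against WT RV it gave 1 throughout, and for RV against LV in cKO 0 to 4. Where it leaves 3E13 RV with 1 library, that library is assumed to vary like the other groups.

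The RV groups hold 2 to 4 libraries, and members near the floor of 3 counts have levels set by few reads. Age and sex are not in the labels. Reads of near-identical copies (Ccl19, Ccl21a, Ccl21b, Ccl27a) cannot be told apart with certainty. Nor can those of overlapping genes, which are Ackr1, Ccl3, Ccr7, Cxcl5, Cxcl10, Cx3cl1, Cxcl16, Cx3cr1 and Xcl1 among called members. Among the others they are Ackr4, Ccl25, Ccl27a, Ccl28, Ccr6, Ccr9, Cxcl11, Cxcr5 and Xcr1.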
